A study of Homo sapiens with 9 samples.

Results

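The carcinoembryonic antigen-related cell adhesion molecules (CEACAMs) are surface glycoproteins of the immunoglobulin superfamily, and 5 of their genes, CEACAM5, CEACAM6, CEACAM7, CEACAM1 and CEACAM19, are described here out of 58237 genes in the count table. They were chosen by name, with earlier results of these data known, and 4 of the 5 had enough reads to be tested. They were measured by RNA-seq of total RNA from H358 cells, an epithelial line established from a human non-small cell lung cancer and kept in RPMI with 10% FBS. There were 3 libraries from BRG1 knockout cells, in which CRISPR was aimed at SMARCA4, 3 from BRM knockout cells, in which it was aimed at SMARCA2, and 3 from the unedited Parental cells, and no group is labelled with a drug or other treatment. SMARCA4 encodes BRG1 and SMARCA2 encodes BRM, and each SWI/SNF chromatin remodelling complex carries either the one or the other as its ATPase. The sources used here give neither whether a knockout is clonal or pooled nor any control besides the parental line. Replicates are not described as separate cultures, and p-values therefore cover only the differences among these libraries, which could be technical.

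CEACAM proteins bind one another on neighbouring cells through their outermost immunoglobulin domains, and bacteria and viruses use several of them as receptors. CEACAM5, the carcinoembryonic antigen measured in serum as a tumour marker, CEACAM6 and CEACAM7 are held in the membrane by a glycosylphosphatidylinositol (GPI) anchor. CEACAM1 crosses the membrane, and splicing gives it either a long cytoplasmic tail, whose tyrosine motifs recruit the phosphatases SHP-1 and SHP-2, or a short tail without them. CEACAM5 and CEACAM6 are often abundant in lung and colon adenocarcinomas, CEACAM7 is known mainly from colon epithelium, and CEACAM19 is a little-studied transmembrane member.

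The libraries held between 31969961 and 40679073 estimated reads. SMARCA4 had 23.9, 21.2 and 23.6 CPM (read counts scaled to library size with TMM factors) in BRG1 knockout libraries, against 244, 216 and 212 CPM in parental libraries. SMARCA2 had 10.3, 12 and 9.36 CPM in BRM knockout libraries, against 49.3, 58.0 and 55.5 CPM in parental libraries. Each targeted gene was therefore low in its own knockout in all 3 libraries. The median absolute log2 distance of a library from the other libraries of its group was largest for replicate 3 among the BRG1 knockout libraries (0.411, against 0.249 and 0.36), for replicate 2 among the BRM knockout libraries (0.269, against 0.224 and 0.168) and for replicate 1 among the parental libraries (0.285, against 0.212 and 0.156).

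All 5 genes lie on chromosome 19 of hg38. CEACAM7 (ENSG00000007306.14, 41673307 to 41706976, minus strand), CEACAM5 (ENSG00000105388.15, 41708585 to 41729798, plus strand) and CEACAM6 (ENSG00000086548.8, 41750977 to 41772208, plus strand) are neighbours. CEACAM1 (ENSG00000079385.21, 42507304 to 42561234, minus strand) and CEACAM19 (ENSG00000186567.12, 44662278 to 44684359, plus strand) lie farther along the chromosome. RefSeq (GRCh38.p14) gives a promoter window for 4 of the 5 genes, and the last 150 bases before the start that RefSeq annotates are shown because CEACAM5 and CEACAM6, which moved together below, share most of this sequence with a gene that was silent and a gene that moved differently. The lines run 5′ to 3′ in the direction of transcription, over chr19:41708476-41708625 for CEACAM5, chr19:41755380-41755529 for CEACAM6, chr19:41688271-41688420 for CEACAM7 and chr19:42528482-42528631 for CEACAM1. These windows lie at least in part inside the GENCODE spans given above, which include transcripts that begin farther upstream. Capitals mark the E-box hexamer CACGTG of CEACAM5 and the hexamer aligned with it in each of the others.
CEACAM5: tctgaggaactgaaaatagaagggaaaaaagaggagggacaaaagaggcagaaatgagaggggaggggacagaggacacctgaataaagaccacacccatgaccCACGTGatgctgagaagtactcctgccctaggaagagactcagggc
CEACAM6: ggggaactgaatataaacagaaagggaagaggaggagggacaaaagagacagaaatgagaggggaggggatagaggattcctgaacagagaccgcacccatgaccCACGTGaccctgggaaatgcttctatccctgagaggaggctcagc
CEACAM7: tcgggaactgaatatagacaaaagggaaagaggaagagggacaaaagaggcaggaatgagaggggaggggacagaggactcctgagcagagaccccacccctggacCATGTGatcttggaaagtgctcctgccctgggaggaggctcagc
CEACAM1: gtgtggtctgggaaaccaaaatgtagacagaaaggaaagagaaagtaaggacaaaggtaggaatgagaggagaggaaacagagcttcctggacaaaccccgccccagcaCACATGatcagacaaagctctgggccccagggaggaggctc

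Over 250 upstream bases the CEACAM5 promoter was 84.0% identical to that of CEACAM7, 78.1% to that of CEACAM6 and 72.0% to that of CEACAM1. The E-box CACGTG, a hexamer bound by USF and MYC proteins, was present in the CEACAM5 and CEACAM6 windows, starting 46 and 45 bases before the RefSeq start, and 6.32% of 34943 RefSeq promoter windows of the same length hold it. The aligned hexamer reads CATGTG in CEACAM7 and CACATG in CEACAM1. The GC box GGGCGG was found in the CEACAM6 and CEACAM1 windows and in 42.5% of all windows. An interferon response core, GAAA followed by any 2 bases and GAAA again, was found in the CEACAM1 window and in 3.02% of all windows, and the TATA core TATAAA in the CEACAM6 window and in 10.8% of all windows. The AP-1 motif TGANTCA (6.59% of all windows), the FOXA core TGTTTAC (2.98%), the NKX2-1 core CAAGTG (9.51%) and the GRHL core AACNNGTT (3.0%) were in none of the 4 windows. Both strands were searched, and a match or its absence describes only these letters.

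Per transcript length, the parental line held CEACAM19 at 12.6 ± 3.03 TPM, a unit that corrects for transcript length, CEACAM1 at 9.81 ± 3.93 TPM, CEACAM6 at 2.37 ± 0.569 TPM and CEACAM5 at 0.847 ± 1.06 TPM (SD, n = 3), while CEACAM7 was at 0. The parental libraries of CEACAM19 and CEACAM1 overlapped in TPM, as did those of CEACAM6 and CEACAM5, whereas every CEACAM1 value lay above every CEACAM6 value. The order in the BRM knockout also began with CEACAM19 at 19.8 ± 2.53 TPM and CEACAM1 at 10.5 ± 3.25 TPM, but CEACAM6 at 7.26 ± 3.12 TPM and CEACAM5 at 6.64 ± 2.01 TPM overlapped with CEACAM1. In the BRG1 knockout CEACAM19 stood alone at 10.6 ± 2.07 TPM, CEACAM1 was at 1.37 ± 0.88 TPM, and CEACAM5 and CEACAM6 were at 0.0446 ± 0.0469 and 0.0435 ± 0.0382 TPM (SD, n = 3). The levels of CEACAM1 in TPM were 0.182, 0.0458 and 0.162 times those of CEACAM19 in the BRG1 knockout libraries, 0.412, 0.509 and 0.65 times in the BRM knockout libraries, and 0.894, 0.639 and 0.747 times in the parental libraries.

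The GPI-anchored CEACAM5 and CEACAM6 lay at opposite ends of their range in the BRG1 knockout and the BRM knockout. Both were almost without reads in the BRG1 knockout, low in the parental line and highest in the BRM knockout. CEACAM1 fell in the BRG1 knockout, its BRM knockout and parental libraries overlapped, and CEACAM19 did not pass the edgeR test in any comparison, though its difference between the knockouts lay near the threshold. By edgeR's quasi-likelihood test at an adjusted p under 0.05, the BRG1 knockout had 3 members lower and 0 higher than the parental line among the 4 tested, where 43.5% of all 18205 genes tested were called, 21.9% lower and 21.6% higher. The BRM knockout had 2 members higher and 0 lower than the parental line, where 37.4% of all genes were called, 21.0% higher. The BRG1 knockout had 3 members lower and 0 higher than the BRM knockout, where 45.3% of all genes were called, 23.8% lower. The 2 comparisons with the parental line share the same 3 parental libraries. CEACAM5 and CEACAM6 could pass the filter on low counts only through the groups where they were high, so these counts are given as a description. In bulk RNA, fewer cells that express a gene and less RNA per cell cannot be told apart.

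**Figure D1:**
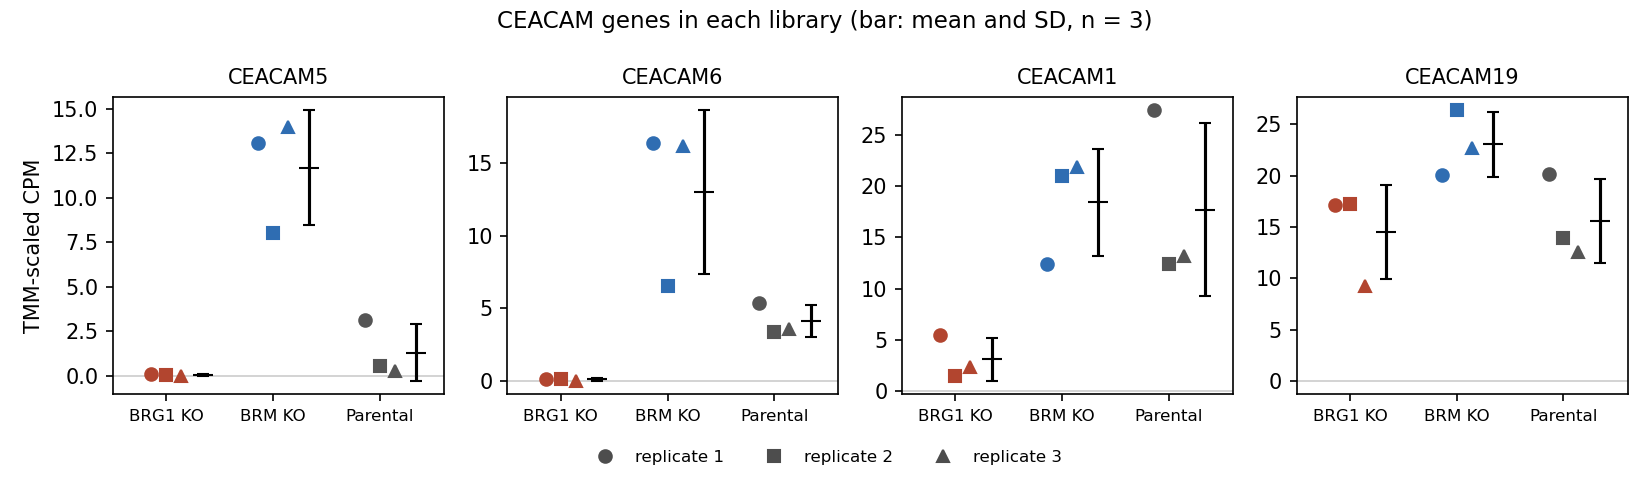
Level of CEACAM5, CEACAM6, CEACAM1 and CEACAM19 in each of the 9 libraries, in TMM-scaled CPM on a linear axis of its own for each gene, with points for replicates and bars for the mean and SD of each group. The BRG1 knockout libraries lie at or near 0 for CEACAM5 and CEACAM6, the BRM knockout libraries lie highest for both, and parental replicate 1 is the highest parental library in all 4 panels.

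CEACAM5 had 0.0853, 0.0263 and 0 CPM in the BRG1 knockout libraries, which is 3, 1 and 0 reads, against 13.1, 8.01 and 14 CPM in the BRM knockout libraries and 3.13, 0.522 and 0.262 CPM in the parental libraries. The 3 groups did not overlap, although the parental values spanned a wide range and most of the parental reads, 102 of 133, came from replicate 1. Against the parental line CEACAM5 fell by 5.0 ± 1.16 log2 units in the BRG1 knockout (approximate SE, edgeR adjusted p = 0.0063), and by 3.30 without parental replicate 1 (adjusted p = 0.0064). Only 4 reads remained over the BRG1 knockout group, and the ratio of the parental to the BRG1 knockout rate was 32.2 with a counting interval of 12.3 to 120.0 (exact 95% interval, counting error only). Without parental replicate 1 that ratio was 10.6, with an interval of 3.73 to 41.2. On the log2(TPM + 1) scale, which compresses low genes, the same difference was -0.68 and did not pass the test (limma adjusted p = 0.14).

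CEACAM5 rose in the BRM knockout by 3.19 ± 0.77 log2 units against the parental line, 9.12-fold (edgeR adjusted p = 0.0095). The size of this rise rested on parental replicate 1. Without that library it was 4.90 (adjusted p = 0.00025), whereas it was 2.81 without parental replicate 2 (adjusted p = 0.041) and 2.69 without parental replicate 3 (adjusted p = 0.022). With no filter on low counts the rise was 3.10 and did not pass the test (adjusted p = 0.062). Against the BRM knockout, CEACAM5 fell by 8.19 ± 1.13 log2 units in the BRG1 knockout (adjusted p = 0.00027), and the ratio of the BRM knockout to the BRG1 knockout rate was 325 with an interval of 127 to 1194.6.

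CEACAM6 had 0.142, 0.132 and 0 CPM in the BRG1 knockout libraries, which is 5, 5 and 0 reads, against 16.4, 6.53 and 16.2 CPM in the BRM knockout libraries and 5.4, 3.37 and 3.58 CPM in the parental libraries. The groups did not overlap, and the parental libraries were closer together than for CEACAM5. Against the parental line CEACAM6 fell by 5.44 ± 0.63 log2 units in the BRG1 knockout (edgeR adjusted p = 8e-05), with a parental to BRG1 knockout ratio of 44.1 and a counting interval of 23.8 to 92.6. Its rise in the BRM knockout was smaller, 1.67 ± 0.45 on the log2 scale or 3.18-fold (adjusted p = 0.014). That call was lost when any of 4 libraries was left out: the rise was 1.54 without parental replicate 2 (adjusted p = 0.064), 1.58 without parental replicate 3 (0.063), 1.38 without BRM knockout replicate 1 (0.07) and 1.49 without BRM knockout replicate 3 (0.064). Against the BRM knockout, CEACAM6 fell by 7.11 ± 0.65 log2 units in the BRG1 knockout (adjusted p = 1.2e-05), with a ratio of 146 and an interval of 79.2 to 305.

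The balance between the GPI-anchored genes also differed between the BRM knockout libraries and the parental libraries. CEACAM5 stood at 0.83, 1.18 and 0.892 times the TPM of CEACAM6 in the BRM knockout libraries, against 0.685, 0.148 and 0.0833 times in the parental libraries. These parental ratios rested on 102, 20 and 11 CEACAM5 reads, so those of replicates 2 and 3 are imprecise. The 2 groups did not overlap, and an exact permutation test gave p = 0.1 (two-sided), which is the smallest value that 3 libraries against 3 allow. Too few reads remained in the BRG1 knockout for this ratio. All CEACAM6 reads were assigned to transcript ENST00000199764, and most CEACAM5 reads to ENST00000221992, with means of 78.72% in the BRM knockout and 80.97% in the parental line.

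CEACAM7 had 0 estimated reads in all 9 libraries. A count of 0 allows up to 3 reads over a group, which is 0.0274 CPM in the BRG1 knockout, 0.0273 CPM in the BRM knockout and 0.0266 CPM in the parental line, so CEACAM7 was not detectable at this depth although it lies beside CEACAM5. The annotated gene AC243967.1 (41708612 to 41761282, plus strand) overlaps both CEACAM5 and CEACAM6 and had 25, 9 and 24 reads in the BRM knockout libraries, against 0 reads in all parental libraries and in all BRG1 knockout libraries. Its reads were too few for the filter, and the BRM knockout rate was at least 19.8-fold higher than 3 reads over the parental group. CEACAM5, CEACAM6, CEACAM7 and CEACAM1 are close paralogs, and how the estimate split reads between near-identical stretches was not tested.

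**Figure D2:**
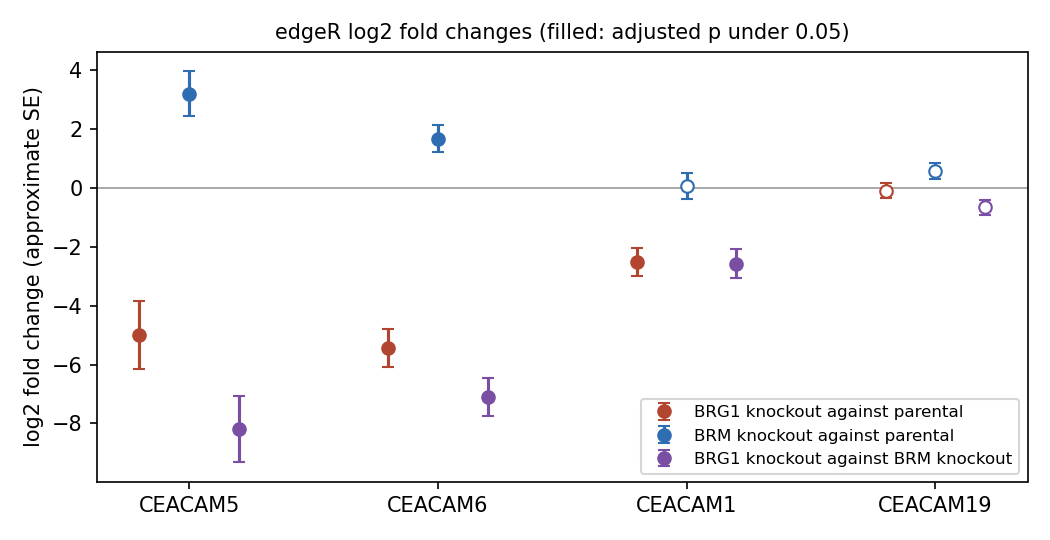
Log2 fold change of each tested CEACAM gene in the 3 comparisons on a linear axis, with points for the edgeR estimate, bars for the approximate SE, and filled points for an adjusted p under 0.05. CEACAM5 and CEACAM6 have filled points on both sides of 0, CEACAM1 only below 0, and CEACAM19 has 3 open points near 0.

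CEACAM1 had 5.43, 1.47 and 2.35 CPM in the BRG1 knockout libraries, against 12.4, 21.0 and 21.8 CPM in the BRM knockout libraries and 27.4, 12.4 and 13.2 CPM in the parental libraries. Every BRG1 knockout library lay below every other library, and the BRM knockout and parental libraries overlapped. CEACAM1 fell by 2.52 ± 0.49 log2 units in the BRG1 knockout against the parental line (edgeR adjusted p = 0.0021), by 2.06 without parental replicate 1 (adjusted p = 0.0068) and by 1.99 without both that library and BRG1 knockout replicate 3 (adjusted p = 0.014). Against the BRM knockout it fell by 2.58 ± 0.49 in the BRG1 knockout (adjusted p = 0.0017). Between the BRM knockout and the parental line the log2 fold change was 0.06 ± 0.45 (adjusted p = 0.93), and it was 0.52 without parental replicate 1. LIPE-AS1, an RNA annotated on the opposite strand over CEACAM1, had 2.73, 2.71 and 4.15 CPM in the BRG1 knockout libraries, against 2.0, 1.07 and 1.67 CPM in the parental libraries. Without a stated strand setting, reads of CEACAM1 and its antisense partner cannot be told apart where they overlap.

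The transcripts of CEACAM1 differ in the exon that sets the length of the tail. That exon covers chr19:42511576-42511628 on the minus strand of hg38, and it is shown, with 15 bases of each neighbouring exon, because its inclusion differed between the groups. Capitals mark its 53 bases in the long-tail transcript ENST00000161559, which codes for 526 residues, and the short-tail transcript ENST00000403444, which codes for 464 residues, joins the same neighbours directly.
CEACAM1 long tail: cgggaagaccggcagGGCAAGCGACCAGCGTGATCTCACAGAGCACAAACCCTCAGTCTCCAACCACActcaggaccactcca
CEACAM1 short tail: cgggaagaccggcagctcaggaccactcca

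Long-tail transcripts took 63.7% of the long-tail and short-tail reads in BRG1 knockout replicate 1 (exact binomial 95% interval 56.3 to 70.9), 64.5% in replicate 2 (50.4 to 76.6) and 66.0% in replicate 3 (54.8 to 77.1). BRM knockout libraries had 11.1% (8.37 to 14.5), 13.0% (10.5 to 15.8) and 3.28% (2.18 to 4.82). Parental libraries had 26.2% (23.3 to 29.3), 19.6% (16.1 to 23.5) and 11.8% (9.2 to 14.9). Each BRG1 knockout share of reads lay inside the counting intervals of the other BRG1 knockout libraries and far above all other libraries. The BRM knockout and parental libraries overlapped. By TPM, the shares in the BRG1 knockout libraries were farther apart, at 63.5%, 63.9% and 54.8%, against at most 21.8% in any other library. The intervals cover counting error only, and not the error of assigning reads to transcripts.

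The mean long-tail share of reads was 64.7 ± 1.13% in the BRG1 knockout, 9.13 ± 5.15% in the BRM knockout and 19.2 ± 7.23% in the parental line (SD, n = 3). The BRG1 knockout was 45.5 percentage points above the parental line and 55.6 points above the BRM knockout, each at p = 0.1 in a two-sided exact permutation test, the smallest value the design allows. The BRM knockout was 10.1 points below the parental line (exact permutation p = 0.2).

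Short-tail reads were fewest in the BRG1 knockout. Short-tail transcripts had 1.83, 0.524 and 0.708 CPM in the BRG1 knockout libraries, against 10.5, 17.3 and 19.2 CPM in the BRM knockout libraries and 19.9, 9.73 and 11.2 CPM in the parental libraries. The parental mean was 13.3 times the BRG1 knockout mean, without overlap (exact permutation p = 0.1). Long-tail transcripts had 3.21, 0.95 and 1.37 CPM in the BRG1 knockout libraries, against 1.31, 2.59 and 0.65 CPM in the BRM knockout libraries and 7.06, 2.38 and 1.5 CPM in the parental libraries, and all 3 groups overlapped (exact permutation p from 0.4 to 0.6). By single transcripts, the short-tail ENST00000403444 took a mean of 30.68% of the gene's reads in the BRG1 knockout, 75.26% in the BRM knockout and 69.17% in the parental line, and the long-tail ENST00000161559 took 57.68%, 7.06% and 17.53% in the same groups. ESRP1 and ESRP2, epithelial regulators of splicing named here after their values were seen, had log2 fold changes of -3.96 (edgeR adjusted p = 0.013) and -4.05 (adjusted p = 0.00015) in the BRG1 knockout against the parental line, and their part in the tail shares was not tested.

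**Figure D3:**
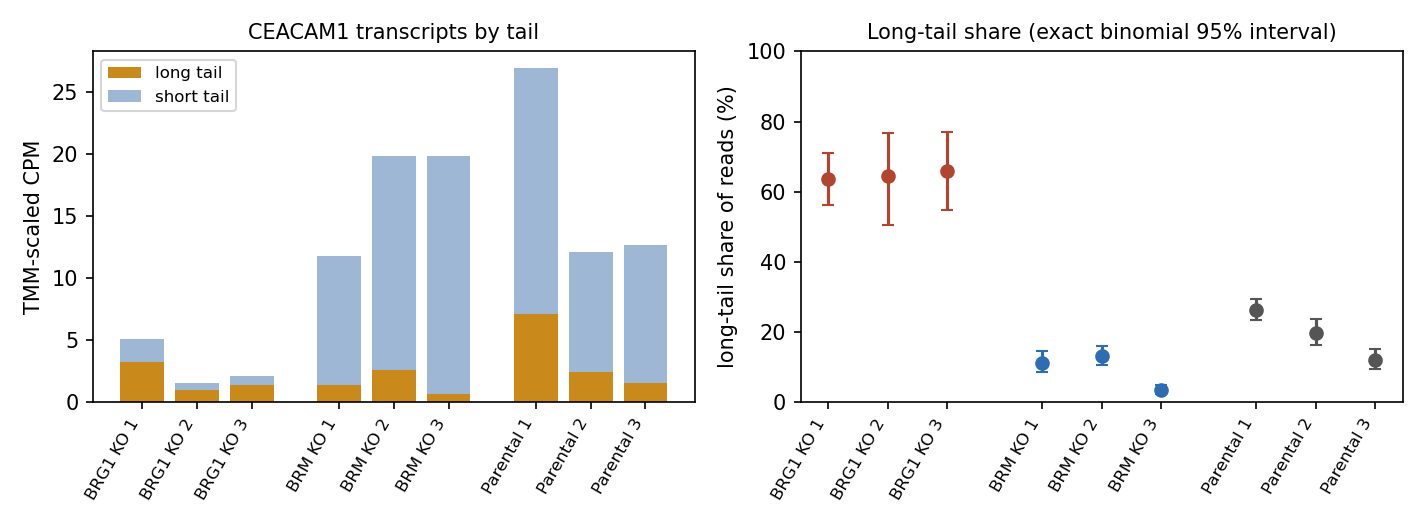
Left, CPM of long-tail and short-tail CEACAM1 transcripts stacked for each library from 0, and right, the long-tail share of these reads in percent with its exact binomial 95% interval. The BRG1 knockout libraries have short bars made mostly of long-tail reads and shares of 63.7% to 66.0%, and the other 6 libraries have shares of 3.28% to 26.2%.

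CEACAM19 had reads in every library. It had 17.1, 17.2 and 9.21 CPM in the BRG1 knockout libraries, against 20.1, 26.4 and 22.7 CPM in the BRM knockout libraries and 20.2, 13.9 and 12.6 CPM in the parental libraries. The BRG1 knockout and parental libraries overlapped, and the BRM knockout and parental libraries overlapped only through parental replicate 1. The log2 fold change was -0.10 ± 0.26 in the BRG1 knockout against the parental line (edgeR adjusted p = 0.78) and 0.57 ± 0.26 in the BRM knockout against the parental line (adjusted p = 0.11). Without parental replicate 1 the second value was 0.80 and passed the test (adjusted p = 0.046). Between the knockouts the libraries did not overlap, with a log2 fold change of -0.67 ± 0.26 in the BRG1 knockout against the BRM knockout (adjusted p = 0.059). That difference passed the test without parental replicate 1 (-0.67, adjusted p = 0.045), with no filter on low counts (-0.65, adjusted p = 0.04) and with limma on log2(TPM + 1) (-0.86, adjusted p = 0.01), and it was -0.41 without BRG1 knockout replicate 3 (adjusted p = 0.14).

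The mix of CEACAM19 transcripts also differed between the groups. The coding transcript ENST00000403660 took 6.38 ± 1.89% of the reads in the BRG1 knockout, 24.1 ± 5.09% in the BRM knockout and 18.3 ± 2.97% in the parental line (SD, n = 3). ENST00000480278, which is annotated without a coding sequence, took 39.2%, 56.6% and 45.4% in the BRG1 knockout libraries, 33.1%, 22.2% and 22.2% in the BRM knockout libraries and 25.5%, 31.1% and 25.6% in the parental libraries. For both transcripts the BRG1 knockout did not overlap with either other group, and each of these comparisons gave the smallest exact permutation p of 0.1. The coding transcript ENST00000358777 took 37.2 ± 5.65%, 39.5 ± 5.96% and 48.3 ± 7.26% in the BRG1 knockout, the BRM knockout and the parental line, which overlapped. The antisense gene AC243964.2, which spans CEACAM19, had 1.56, 1.5 and 1.52 CPM in the BRG1 knockout libraries, against 0.0805, 0.0903 and 0.101 CPM in the BRM knockout libraries and 0.276, 0.417 and 0.0715 CPM in the parental libraries. It rose by 2.58 ± 0.53 log2 units in the BRG1 knockout against the parental line (edgeR adjusted p = 0.0027), and its part in the CEACAM19 transcript shares was not tested. On the same strand, PVR overlaps the start of the CEACAM19 span, and AC243964.3 lies inside it. In the parental line PVR had a mean of 178 CPM and AC243964.3 one of 16.1 CPM. How the estimate split reads between these genes and CEACAM19 was not tested.

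The wider family, 18 other CEACAM and pregnancy-specific glycoprotein (PSG) genes, held 5 genes with enough reads to be tested. PSGs are secreted relatives of the CEACAMs, known from the placenta, and their genes lie on the same chromosome. In the BRG1 knockout against the parental line 4 of the 5 fell, 0 rose, and the median log2 fold change was -4.73, against -0.00825 and a share of 21.9% called lower over all genes tested. PSG3, PSG6, PSG9, CEACAM22P and CEACAM20 had few or no reads in the BRG1 knockout and could pass the filter only through the groups where they were high, so these counts and medians are given as a description. In the BRM knockout against the parental line 2 rose and 0 fell, where 21.0% of all genes rose and 16.4% fell. The median was 1.31, against 0.0933 over all genes. All 5 fell in the BRG1 knockout against the BRM knockout, where 23.8% of all genes fell, with a median of -3.50, against -0.00161. CEACAM3, CEACAM4, CEACAM8, CEACAM18, CEACAM21, PSG7 and PSG8 had no reads in any library. CEACAM16, which was not tested, went against this order, with 9, 1 and 4 reads in the BRG1 knockout libraries and 0 reads in all BRM knockout and parental libraries. PSG1, also not tested, had 80, 8 and 6 reads in the BRM knockout libraries, so most came from replicate 1. It had 1, 0 and 6 reads in the BRG1 knockout libraries and 1, 0 and 1 in the parental libraries.

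PSG3 had 0.114, 0 and 0 CPM in the BRG1 knockout libraries, against 10.5, 17.4 and 21.5 CPM in the BRM knockout libraries and 5.62, 0.965 and 0.787 CPM in the parental libraries. It showed the same order of groups as CEACAM5, without overlap, and parental replicate 1 was again the highest parental library. The ratio of the parental to the BRG1 knockout rate was 61.3 with a counting interval of 23.6 to 227, or 23.8 with an interval of 8.91 to 89.9 without parental replicate 1. PSG3 rose by 2.76 ± 0.75 log2 units in the BRM knockout against the parental line (edgeR adjusted p = 0.016). That rise was 4.23 without parental replicate 1 (adjusted p = 0.00054), and its call was lost without parental replicate 2 (2.37, adjusted p = 0.063), parental replicate 3 (2.33, 0.055) or BRM knockout replicate 3 (2.52, 0.056). PSG6 had 0 reads in all BRG1 knockout libraries, 7.83, 1.87 and 2.38 CPM in the BRM knockout libraries and 0.676, 0.0783 and 0.0954 CPM in the parental libraries. Against 3 reads over the BRG1 knockout group, PSG6 was at least 9.37-fold lower there than in the parental line, and at least 3.18-fold lower without parental replicate 1, which held 22 of the 29 parental reads. Its edgeR call in that comparison (adjusted p = 0.032) was lost without parental replicate 1 (0.077) and without any 1 of the BRG1 knockout libraries (0.063 to 0.073). It rose by 3.87 ± 0.90 log2 units in the BRM knockout against the parental line (adjusted p = 0.011).

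CEACAM22P, a pseudogene near CEACAM19, had 0.767, 0.105 and 0.166 CPM in the BRG1 knockout libraries, against 2.41, 6.71 and 2.66 CPM in the BRM knockout libraries and 13.5, 5.92 and 8.08 CPM in the parental libraries. CEACAM20, a transmembrane member beside it, had 0.0284, 0.105 and 0 CPM in the BRG1 knockout libraries, against 0.375, 0.843 and 0.278 CPM in the BRM knockout libraries and 1.2, 0.992 and 0.572 CPM in the parental libraries. Both were lowest in the BRG1 knockout without overlap, and their highest means were in the parental line, unlike those of CEACAM5 and CEACAM6, which were in the BRM knockout. CEACAM22P fell by 4.73 ± 0.71 log2 units in the BRG1 knockout against the parental line (edgeR adjusted p = 0.00046) and CEACAM20 by 4.24 ± 0.81 (adjusted p = 0.0018), and neither passed the test in the BRM knockout (adjusted p = 0.12 and 0.29), although CEACAM22P did without BRG1 knockout replicate 1 (-1.31, adjusted p = 0.039). PSG9 had 0.341, 0.21 and 0.194 CPM in the BRG1 knockout libraries, against 2.31, 1.75 and 1.59 CPM in the BRM knockout libraries and 1.57, 0.261 and 0.477 CPM in the parental libraries, and it passed the test only in the BRG1 knockout against the BRM knockout (log2 fold change -2.91, adjusted p = 0.0032). Without parental replicate 1, PSG9 also passed in the BRM knockout against the parental line (2.33, adjusted p = 0.0046), and without parental replicate 2 in the BRG1 knockout against the parental line (-2.02, adjusted p = 0.02).

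**Figure D4:**
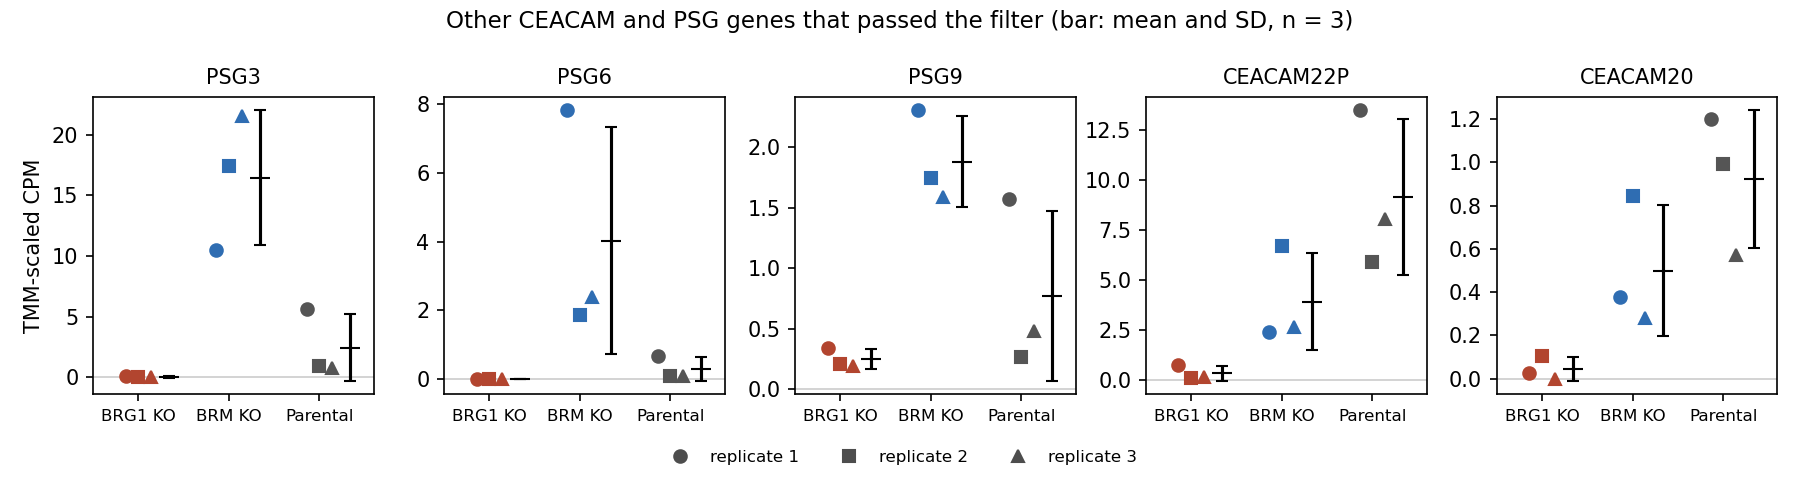
Level of the 5 other CEACAM and PSG genes that passed the filter in each of the 9 libraries, in TMM-scaled CPM on a linear axis of its own for each gene, with points for replicates and bars for the mean and SD of each group. The BRG1 knockout has the lowest mean in every panel, and its PSG9 libraries lie between 0.194 and 0.341 CPM. PSG3, PSG6 and PSG9 are highest in the BRM knockout, and CEACAM22P and CEACAM20 have their highest means in the parental line.

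The cytoplasmic partners and the ligands of CEACAM1 were a list of 15 genes, of which 13 were tested. In the BRG1 knockout against the parental line 2 rose and 7 fell, with a median log2 fold change of -0.55, where 21.6% of all genes rose and 21.9% fell. In the BRM knockout against the parental line 5 rose and 2 fell, with a median of 0.31, where 21.0% of all genes rose and 16.4% fell. PTPN6, the gene of SHP-1, had a log2 fold change of -0.33 ± 0.19 in the BRG1 knockout (edgeR adjusted p = 0.18), and PTPN11, the gene of SHP-2, fell there by 0.74 ± 0.22 (adjusted p = 0.018). The kinase gene SYK had no reads in the BRG1 knockout, against 31.0 ± 5.45 CPM in the parental line, and it rose by 1.10 ± 0.19 log2 units in the BRM knockout (adjusted p = 0.0027). The Src family kinase gene LYN fell by 2.78 ± 0.15 in the BRG1 knockout (adjusted p = 7.1e-07). SRC rose by 1.49 ± 0.25 in the BRM knockout (adjusted p = 0.0012), and the insulin receptor gene INSR rose by 2.96 ± 0.30 in the BRG1 knockout and by 1.99 ± 0.29 in the BRM knockout (adjusted p = 3e-05 and 0.00058).

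CEACAM5 and CEACAM6 depend on the GPI anchor, and 26 listed genes that build, attach or remodel it were all tested. Of these, 3 rose and 6 fell in the BRG1 knockout against the parental line, with a median log2 fold change of -0.01, and 3 rose and 9 fell in the BRM knockout, with a median of -0.17, where 43.5% and 37.4% of all genes were called. PIGH, a subunit of the enzyme of the first step, rose by 1.75 ± 0.22 in the BRG1 knockout (edgeR adjusted p = 0.00013) and by 1.19 ± 0.22 in the BRM knockout (adjusted p = 0.0019). PIGS, of the complex that joins the anchor to proteins, rose by 1.23 ± 0.13 in the BRG1 knockout (adjusted p = 4.2e-05). PIGW, which acylates the inositol, fell by 1.07 ± 0.23 in the BRG1 knockout and by 1.71 ± 0.24 in the BRM knockout (adjusted p = 0.0036 and 0.00045), and DPM2, a subunit of the mannose donor's synthase, fell by 1.09 ± 0.21 in the BRM knockout (adjusted p = 0.0024).

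Of 24 other genes for GPI-anchored surface proteins 23 were tested. In the BRG1 knockout against the parental line 6 rose and 10 fell, with a median of -0.36, against 43.5% of all genes called, and in the BRM knockout 5 rose and 2 fell, with a median of 0.25, against 37.4% of all genes called. THY1 rose by 3.54 ± 0.44 in the BRG1 knockout (edgeR adjusted p = 0.00013), while the placental phosphatase gene ALPP fell by 3.43 ± 0.64 (adjusted p = 0.0016) and the protease gene PRSS8 by 3.42 ± 0.90 (adjusted p = 0.013). ALPP fell in the BRM knockout as well, by 5.86 ± 0.78, NTNG1 fell there by 5.29 ± 0.70 (adjusted p = 0.0004 for both), and the complement regulator gene CD55 rose by 1.59 ± 0.19 (adjusted p = 0.00026). Few reads of ALPP and NTNG1 remained in the BRM knockout, at 0.0739 ± 0.0647 and 0.183 ± 0.21 CPM. Their parental levels were 4.43 ± 3.13 and 7.07 ± 1.63 CPM (SD, n = 3).

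Of 21 transcription factors reported at CEACAM genes 18 were tested, and in the BRG1 knockout against the parental line 12 fell and 0 rose, with a median log2 fold change of -1.27, where 21.9% of all genes fell. The lung lineage factor gene NKX2-1 was at 0.0182 ± 0.0158 CPM in the BRG1 knockout, against 80.8 ± 21.3 CPM in the parental line. EHF, of the epithelial ETS family, fell by 7.65 ± 0.50 (edgeR adjusted p = 2.5e-06) and the epithelial factor gene GRHL2 by 4.73 ± 0.88 (adjusted p = 0.0021). In the BRM knockout against the parental line 5 rose and 6 fell, with a median of 0.04, where 37.4% of all genes were called. NKX2-1 rose there by 1.55 ± 0.24 (adjusted p = 0.00081) and ELF3 by 1.31 ± 0.40 (adjusted p = 0.026), and SOX9 fell by 1.08 ± 0.20 (adjusted p = 0.002). The genes of the E-box proteins, USF1 and USF2, had log2 fold changes of -0.45 and 0.16 in the BRG1 knockout and did not pass the test (adjusted p = 0.062 and 0.34). USF1 fell by 0.69 and USF2 by 0.38 in the BRM knockout (adjusted p = 0.012 and 0.037).

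Markers of epithelial identity moved with CEACAM5, CEACAM6 and CEACAM1 in the BRG1 knockout. Of 14 such genes tested, 13 fell and 0 rose there against the parental line, where 21.9% of all genes fell, with a median log2 fold change of -3.77, among them RAB25 by 4.25 ± 0.88 (edgeR adjusted p = 0.0039), ST14 by 4.21 ± 0.97 (0.0067) and CLDN7 by 4.14 ± 0.59 (0.00045). Their summed level ranged from 451 to 1442.7 CPM in the BRG1 knockout, from 8281.8 to 9636.1 CPM in the BRM knockout and from 7430.3 to 8031.6 CPM in the parental line. Against the parental line, 1 of the 14 rose and 0 fell in the BRM knockout, with a median of 0.25. Among all genes 21.0% rose and 16.4% fell in that comparison. Of 6 fibroblast markers tested, 4 were higher in the BRG1 knockout than in the parental line, where 21.6% of all genes were higher. The summed fibroblast level ranged from 393 to 1030.7 CPM in the BRG1 knockout, from 82.7 to 127 CPM in the BRM knockout and from 32.2 to 63.3 CPM in the parental line. COL3A1 and COL1A1 held most of the BRG1 knockout sum, with means of 311 and 247 CPM, against 0.802 and 28.5 CPM in the parental line. COL1A2 had a mean of 0.634 CPM in the BRG1 knockout, against 0.878 CPM in the parental line. LUM had 12.7 CPM, against 12.2 CPM, and FAP 0.163 CPM, against 0.177 CPM. The part of these markers in the CEACAM results was not tested.

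Markers of granulocytes and other blood cells, which also carry CEACAM proteins, summed to 2.07 to 2.43 CPM in the BRG1 knockout, 1.49 to 3.43 CPM in the BRM knockout and 1.93 to 2.67 CPM in the parental line. Of 12 such genes 3 were tested, among them PTPRC and CD14, with log2 fold changes of 0.37 and -0.24 in the BRG1 knockout against the parental line (edgeR adjusted p = 0.72 and 0.67) and of -2.60 and 0.67 in the BRM knockout (adjusted p = 0.051 and 0.22). The granulocyte genes MPO, CSF3R and S100A8 were at 0 in all libraries. ELANE, another granulocyte gene, went the other way, with a mean of 0.305 CPM in the BRG1 knockout and 0 in the other groups. S100A9 had means of 0.0831 CPM in the BRG1 knockout, 0.108 CPM in the BRM knockout and 0.0546 CPM in the parental line. Endothelial markers, of which 5 were tested, summed to 4.59 to 4.77 CPM in the BRG1 knockout, 47.9 to 75.5 CPM in the BRM knockout and 6.34 to 10.2 CPM in the parental line. KDR held most of the BRM knockout sum, with a mean of 56.6 CPM there, against 4.55 CPM in the parental line, while PECAM1 had a mean of 0.169 CPM in BRM knockout cells, against 0.574 CPM in parental cells, and TIE1 one of 0.0543 CPM, against 1.45 CPM. Against the parental line 0 of the endothelial markers rose and 1 fell in the BRG1 knockout, where 21.6% of all genes rose and 21.9% fell. In the BRM knockout 2 rose and 1 fell, where 21.0% of all genes rose and 16.4% fell. The part of the endothelial markers in the CEACAM results was not tested.

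Genes around the CEACAM loci are described by the share called near each locus, set against 43.5% of all genes in the BRG1 knockout and 37.4% in the BRM knockout against the parental line. Within 500 kb of CEACAM7, CEACAM5 and CEACAM6, 27 other genes were tested, of which 9 rose and 2 fell in the BRG1 knockout against the parental line (40.7% called, median log2 fold change 0.33) and 8 rose and 3 fell in the BRM knockout (40.7%, median 0.41). The window around CEACAM1 overlaps that one, and some genes, such as ERF and CIC, are counted in both. Within 500 kb of CEACAM1, 6 of 19 rose and 2 fell in the BRG1 knockout (42.1%, median 0.33), and the 2 that fell were PSG3 and PSG6. Among the 6 that rose were TMEM145, ERF, LIPE-AS1, CIC and PAFAH1B3, by 0.74 to 2.33 on the log2 scale (edgeR adjusted p at most 0.024). Near CEACAM1 in the BRM knockout, PSG6, PSG3, the chemokine gene CXCL17, PAFAH1B3 and CIC rose, and AC006486.2 fell. Within 500 kb of CEACAM19, 8 of 32 rose and 4 fell in the BRG1 knockout (37.5%), and 6 rose and 2 fell in the BRM knockout (25%). The 6 were APOE, NKPD1, BCAM, TRAPPC6A, MARK4 and PPP1R37, and the 2 were ZNF180 and TOMM40.

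Likeness of pattern was described by Pearson's r of log2 CPM over the 9 libraries, which fall into 3 groups, so r mostly reflects the group means and carries no p. Among the members, r was 0.919 between CEACAM5 and CEACAM6, 0.886 between CEACAM1 and CEACAM6, 0.826 between CEACAM1 and CEACAM5, 0.783 between CEACAM5 and CEACAM19, 0.645 between CEACAM6 and CEACAM19 and 0.564 between CEACAM1 and CEACAM19. Of 12752 protein-coding genes searched, those most like CEACAM5 were TMEM40 (0.993), CCDC187 (0.99), SSH3 (0.988), PTK2 (0.986) and SLC12A7 (0.985). Those most like CEACAM6 were FAM83H (0.998), IER5 (0.996), NAGS, MAB21L4 and SLCO3A1 (0.995 each). Those most like CEACAM1 were IDO1 (0.982), TMC8 (0.977), MBP and APOL6 (0.976 each) and CCDC57 (0.975). Those most like CEACAM19 were STARD3 (0.979), BRI3 (0.968), CACNB1 (0.967), STK32C (0.956) and ZNF212 (0.955).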

How the data were processed

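RNA-seq of H358 cells was analysed in 9 libraries, 3 per group. The authors deposited 1 file per library with estimated counts per transcript, made with Salmon on hg38, per the submitters' processing notes. TPM values, also by the authors' Salmon run, stand beside them, per the file headers. The submitters' processing notes also name DESeq2. The sources used here give no tool version, transcript annotation, library type or strand setting. Of 203835 transcripts, 203746 matched GENCODE release 29, and the 89 others, left out, held up to 0.0193% of the reads in a library.

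Estimated counts were summed per gene, rounded and analysed in R 4.3.3 by edgeR 4.0.16 (filterByExpr, TMM, glmQLFit robust, 1 model over 9 libraries, 6 residual degrees of freedom, biological coefficient of variation 0.253, two-sided quasi-likelihood F test). P-values were adjusted by Benjamini-Hochberg across the 18205 genes that passed the filter, with calls at 0.05, and an adjusted p in the text is edgeR's unless another tool is named. The SE is approximate, taken as |log2 fold change| over the root of F, and is unreliable for genes with few reads in a group. CPM are TMM-scaled. Shares and TPM ratios were compared with two-sided exact permutation tests over libraries. The fit was tested on simulated counts with 200 changed genes. No 2 replicates agreed within sampling noise (chi-square per degree of freedom from 11.2 to 202). Intervals are exact at 95%, and a count of 0 was read as up to 3 reads.

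Members and lists were chosen with earlier results of these data known. Named besides the 5 members and the targeted genes were up to 3 called genes per list and comparison by size of change (with a mean log2 CPM of 1 or more in 1 group), family genes with reads, called genes near a locus with at most 10 of them, and the 5 most alike protein-coding genes. Some genes that meet this rule are not reported here. Other named genes (PTPN6, PTPN11, USF1, USF2, ESRP1, ESRP2 and the overlapping genes) were chosen after their values were seen. Alternatives were another library scaling, DESeq2 1.42.0, no filter, only the groups compared, a replicate block, limma 3.58.1 on log2(TPM + 1), and libraries left out.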

Additional observations from a re-analysis of the deposited data

How the results depend on the processing

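Depth limits CEACAM5 and CEACAM6 in the BRG1 knockout, where 4 and 10 reads remained, and CEACAM7, which gave no value under any alternative. Of the recomputed log2 fold changes of the 4 tested members, 167 kept their direction and side of the threshold, 12 turned round, none of them called by either fit, 7 newly passed the test and 6 no longer passed it. In the BRM knockout against the parental line, CEACAM1 was -0.04 with no filter and -0.02 with only the 6 samples compared, and CEACAM5 was 3.10 with no filter, no longer passing. CEACAM5 in the BRG1 knockout against the parental line was -0.68 with limma on log2(TPM + 1), no longer passing. CEACAM19 in the BRG1 knockout against the BRM knockout newly passed at -0.65 with no filter, -0.73 with the replicate block and -0.86 with limma, and in the BRM knockout against the parental line at 0.63 with limma and 0.69 without the 2 libraries that stood apart (parental replicate 1, BRG1 knockout replicate 3). Without both, CEACAM19 in the BRG1 knockout against the parental line was 0.29. The cause was not tested.

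Every count of genes called stayed within 1.5 times its value in the full fit. Leaving out 1 library at a time gave 6150 to 8905 genes called in the BRG1 knockout against the parental line, 4540 to 8214 in the BRM knockout against the parental line and 6480 to 9009 in the BRG1 knockout against the BRM knockout. For the same comparisons in the same order, the log2 fold change ranged from -3.27 to -2.06, from -0.14 to 0.52 and from -3.24 to -2.23 for CEACAM1, from -6.30 to -3.30, from 2.69 to 4.90 and from -9.41 to -7.63 for CEACAM5, from -5.92 to -4.94, from 1.38 to 1.99 and from -7.51 to -6.52 for CEACAM6, and from -0.31 to 0.13, from 0.44 to 0.80 and from -0.80 to -0.41 for CEACAM19. The difference in long-tail share of CEACAM1 ranged from 41.8 to 49.0, from -13.8 to -6.58 and from 52.7 to 57.5 percentage points. The alternatives for this share, and those for the PSG genes, CEACAM20, CEACAM22P and the ratios of reads, were chosen after seeing the data.

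With limma on log2(TPM + 1), the BRG1 knockout had 2530 genes higher and 4908 lower than the parental line, against 3930 higher and 3984 lower by edgeR. Libraries share only a replicate number: the correlations of same-numbered libraries' deviations lay between -0.079 and 0.175. With the replicate number as a block, 7486, 6392 and 7802 genes were called in the 3 comparisons, against 7914, 6805 and 8252 without it.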
